A study of Mus musculus with 6 samples.

Results

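Mitochondrial ribosomal protein genes were taken from the deposited table by symbol alone, as every row whose symbol starts with Mrpl or Mrps followed by a number. Of the 16244 genes in the table, 78 met this rule, 49 named for the large subunit (*Mrpl*) and 29 for the small subunit (*Mrps*). The rule itself uses no measured value. All 78 genes had a mean of at least 10 normalized reads over the 6 libraries and were among the 11908 genes tested.

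Mitochondria carry ribosomes of their own, which translate the few proteins encoded by mitochondrial DNA, all of them subunits of the respiratory chain and ATP synthase. The ribosomal RNAs come from the mitochondrial genome, whereas the ribosomal proteins are encoded in the nucleus, made in the cytosol and imported. Some of these proteins have bacterial counterparts and others exist only in mitochondria. Activated T cells enlarge their mitochondrial mass as they grow, and blocking mitochondrial translation is known to limit T cell effector functions.

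The study compared WT with RORγtN275D (N275D) knockin mice, in which aspartate replaces an asparagine of RORγt, the lineage-defining transcription factor of Th17 cells. Naive CD4+ T cells, with spleen given as the tissue, were activated with anti-CD3 and anti-CD28 and kept for 3 days under pathogenic Th17 conditions, whose cytokines include IL-6, IL-1β and IL-23, and both genotypes were cultured alike. The study describes its WT mice as purchased C57BL/6 and lists them as C57BL/6NJ. The knockin mice came from another laboratory and were on a C57BL/6 background, with no substrain given. Differences of substrain or colony may therefore not be told apart from genotype. RNA-seq was done on 3 libraries per genotype. Zygosity, the age of the donors and whether WT mice were littermates are not given in the labels, and the labels do not say whether the 3 libraries of a genotype came from separate animals or cultures. The p-values therefore measure the spread between these libraries, which may in part be technical.

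Reads on genes ranged from 17905693 to 18510878 in WT and from 17659035 to 17888463 in N275D libraries. Values are the authors' normalized reads, and fold changes are differences of log2(normalized reads + 1), N275D over WT, from limma with p-values adjusted over all genes tested. T cell markers were present, and the 8 T and Th17 cell markers summed to 74210 to 78130 normalized reads in WT and 85336 to 85985 in N275D libraries. At an adjusted p under 0.05 by limma 3 of them were lower and 3 higher, where 26.1% and 24.7% of all genes tested were. *Cd4* was lower (9143 ± 331 reads in WT and 7591 ± 26.1 in N275D cells, SD, n = 3). *Il17a* (27495 ± 365 and 32152 ± 458) and *Il17f* (32635 ± 1965 and 39026 ± 702), which held most of the sums, were higher. Markers of other cells were in part higher in N275D cells: the 10 B cell markers summed to 1149.6 to 1189 reads in WT and 1759 to 1823 in N275D libraries, 7 CD8 T and natural killer cell markers to 296 to 321 and 453 to 497, and 10 myeloid markers, which overlapped, to 91.8 to 111 and 107 to 134. *Ebf1* held most of the B cell sums, at 986 ± 16.1 reads in WT and 1479 ± 62.3 in N275D cells. *Cd8a* did not rise with its list, at 32.6 ± 6.70 and 27.6 ± 2.67 reads (adjusted p = 0.401 by limma). Of the myeloid markers, *Adgre1* fell from 22.6 ± 3.22 to 6.64 ± 3.05 and *Cd14* rose from 11.3 ± 3.56 to 22.9 ± 0.96. Of the gamma delta T cell markers, *Sox13* was listed, at 18.2 to 31.4 and 35.1 to 38.5 reads. The 20 mitotic genes summed to 68172 to 73072 reads in WT and 61821 to 63206 in N275D libraries. The part of these differences in the results below was not tested. In bulk RNA, fewer cells of a type and less RNA per cell cannot be told apart.

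As a set, the mitochondrial ribosomal protein genes held fewer reads in N275D than in WT Th17 cells, in both subunits and by nearly the same proportion. The large subunit genes summed to 46966, 45182 and 47332 normalized reads in the WT libraries and to 41445, 41482 and 41160.0 in the N275D libraries. The genotypes did not overlap, and the mean fell by 11.0%, from 46493 ± 1150.2 to 41363 ± 176 (SD, n = 3). For the small subunit genes the sums were 25583, 25208 and 25961 in WT and 22801, 22619 and 22433 in N275D libraries. Their mean fell by 11.6%, from 25584 ± 376 to 22618 ± 184, again with no overlap. The ratio of large to small subunit reads was 1.82 ± 0.0223 in WT and 1.83 ± 0.00965 in N275D cells, and here the genotypes overlapped. All 78 genes together took 0.398% ± 0.00766 of the reads of a WT library and 0.362% ± 0.00165 of an N275D library. The total of normalized reads itself was 18072567 to 18182534 in WT and 17666143 to 17715591 in N275D libraries. The WT libraries varied more than the N275D libraries, with WT replicate 2 the lowest of the WT libraries in both subunits, but still above each N275D library. No test was run on these sums.

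**Figure D1:**
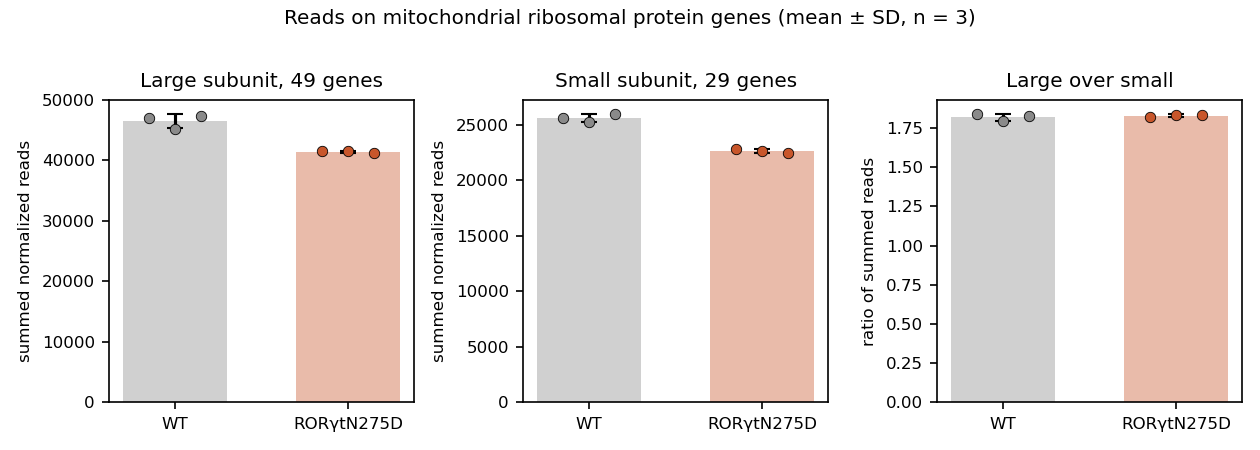
Summed normalized reads of the 49 large subunit genes and the 29 small subunit genes, and their ratio, in WT and N275D Th17 cells. Bars are means, error bars SD (n = 3) and points single libraries; both sums are lower in all 3 N275D libraries (41160.0 to 41482 and 22433 to 22801), and the ratio overlaps near 1.8.

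Gene by gene, 41 of the 78 genes were lower and 1 was higher in N275D cells at an adjusted p under 0.05 by limma. Over all 11908 genes tested, the same rule called 26.1% lower and 24.7% higher, 50.9% in all. All 78 genes averaged more than 100 reads, and of the 9581 genes at or above that level it called 30.2% lower and 24.5% higher. In the large subunit 26 genes fell, 1 rose and 22 did not pass the test, and in the small subunit 15 fell, none rose and 14 did not pass. With or without a call, 70 of the 78 log2 fold changes were below 0, against 50.4% of all genes tested and 53.9% of those that averaged 100 reads or more. The medians were -0.16 for the large subunit, -0.16 for the small subunit and -0.00 for all genes tested. In 48 genes each N275D library lay below each WT library, and in 1 each lay above, where 29.6% and 28.1% of all genes did so. The changes were small: of the called genes *Mrpl21* fell by 9.44%, the least, and *Mrpl42* fell by 27.5%, the most, and no gene reached 2-fold, which 3.59% of all genes passed with an adjusted p under 0.05. The spread within a genotype was small as well, with a median SD of 0.07 on the log2 scale for these genes and 0.08 for all genes tested. An exact permutation test of 3 against 3 libraries cannot give a two-sided p below 0.1 for a gene taken alone.

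**Figure D2:**
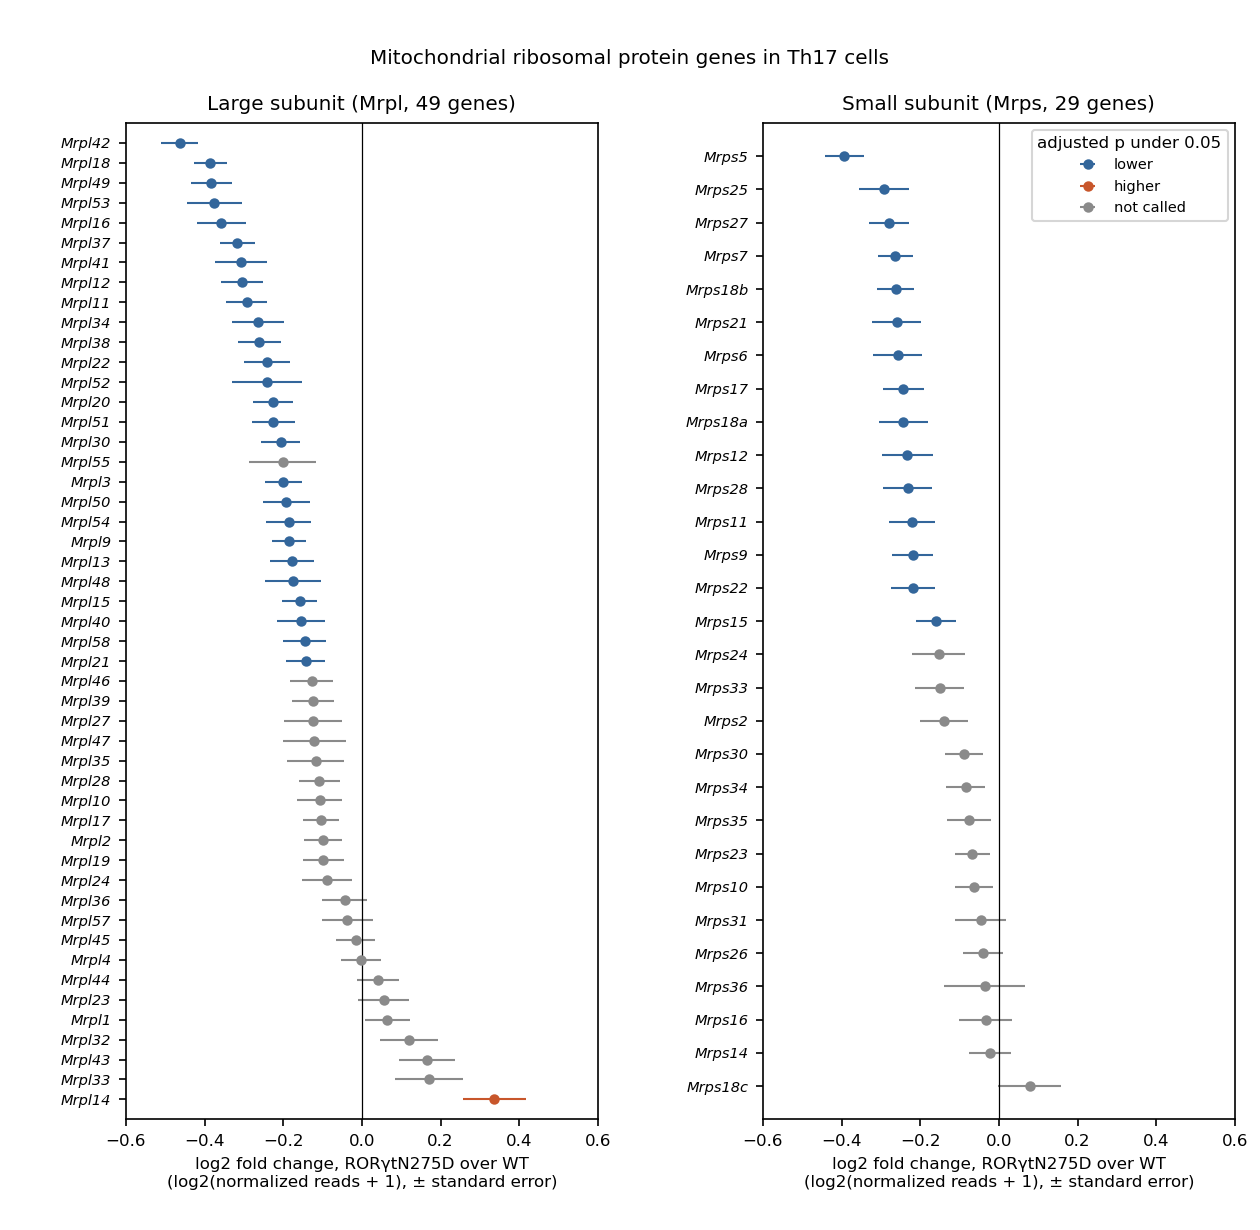
Log2 fold change (N275D over WT, ± standard error) of each of the 49 large and 29 small subunit genes, ordered by size. Blue points are lower and the orange point is higher at an adjusted p under 0.05, grey points did not pass; most points of both subunits lie between -0.46 and 0, and *Mrpl14* stands alone at 0.34.

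To show what the promoters of these genes share, windows from 250 bases before to 50 bases after annotated starts were taken from RefSeq (GRCm38.p6), where 69 of the 78 genes matched, with 75 windows. Factors known to act on nuclear genes for mitochondrial proteins include NRF1, the ETS factor GABP and YY1, and their best known binding words were searched on both strands. The NRF1 word, GCGCA and GCGC with any 1 base between, was in 17.3% of these windows, in 10.1% of the windows of all genes tested and in 4.6% of all 32851 windows. The ETS word CCGGAAG, which GABP reads, was in 34.7%, 17.9% and 8.9%, and the YY1 word AAGATGGCG in 10.7%, 3% and 1.4%. The E-box CACGTG, read by MYC, was in 9.3% of the windows of these genes, 10% of those tested and 7.2% of all. Its 7 windows among these genes belong to 5 genes, since overlapping windows of *Mrpl2* hold the same site. Of the cores that HIF-1 reads, ACGTG, which lies within CACGTG, was in 25.3%, 25.8% and 19.6%, and GCGTG in 56%, 50.6% and 32.4%. Among these genes that was 19 windows of 16 genes for ACGTG and 42 windows of 38 genes for GCGTG. The windows of these genes had a median GC content of 58.7%, against 60.7% for genes tested and 52.7% for all windows. The 250 bases before the start are printed below, 5′ to 3′ and on the strand of the gene, for 5 genes that fell and carry NRF1, ETS or YY1 words and for *Mrpl42*, the gene with the largest fall, all picked after their values were seen. Capitals mark matches to the NRF1, ETS, YY1 or E-box words on either strand.
Mrpl12: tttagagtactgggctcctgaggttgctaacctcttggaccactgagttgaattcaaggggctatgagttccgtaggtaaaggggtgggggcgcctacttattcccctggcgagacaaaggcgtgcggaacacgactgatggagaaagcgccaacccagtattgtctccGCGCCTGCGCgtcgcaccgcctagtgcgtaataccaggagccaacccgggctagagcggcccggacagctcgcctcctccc
Mrps21: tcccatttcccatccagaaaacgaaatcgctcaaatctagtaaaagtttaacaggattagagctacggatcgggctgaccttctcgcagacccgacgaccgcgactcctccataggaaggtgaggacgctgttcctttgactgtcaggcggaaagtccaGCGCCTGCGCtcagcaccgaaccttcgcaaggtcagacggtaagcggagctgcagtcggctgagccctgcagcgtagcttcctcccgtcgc
Mrpl53: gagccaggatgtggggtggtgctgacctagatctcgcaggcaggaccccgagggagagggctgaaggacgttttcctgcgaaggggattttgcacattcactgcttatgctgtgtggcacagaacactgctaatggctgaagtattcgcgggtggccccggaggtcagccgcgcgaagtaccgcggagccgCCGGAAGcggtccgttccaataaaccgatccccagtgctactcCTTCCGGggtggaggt
Mrps22: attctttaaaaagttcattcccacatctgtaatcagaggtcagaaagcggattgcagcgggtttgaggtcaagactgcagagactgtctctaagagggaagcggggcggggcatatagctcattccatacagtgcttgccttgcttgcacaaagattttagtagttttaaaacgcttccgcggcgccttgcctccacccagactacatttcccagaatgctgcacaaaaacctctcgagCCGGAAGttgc
Mrps11: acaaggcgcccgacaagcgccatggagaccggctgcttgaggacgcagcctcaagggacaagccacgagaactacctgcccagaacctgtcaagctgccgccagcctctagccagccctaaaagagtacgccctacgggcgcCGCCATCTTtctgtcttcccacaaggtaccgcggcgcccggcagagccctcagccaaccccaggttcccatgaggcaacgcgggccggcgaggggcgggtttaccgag
Mrpl42: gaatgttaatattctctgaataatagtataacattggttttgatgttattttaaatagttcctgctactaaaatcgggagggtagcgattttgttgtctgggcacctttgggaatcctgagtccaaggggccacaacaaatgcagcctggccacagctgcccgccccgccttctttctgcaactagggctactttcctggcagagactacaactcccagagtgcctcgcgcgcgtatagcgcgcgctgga
The windows lie at chr11:120484387-120484636, plus strand (*Mrpl12*), chr3:95871515-95871764, minus strand (*Mrps21*), chr6:83108858-83109107, plus strand (*Mrpl53*), chr9:98601680-98601929, minus strand (*Mrps22*), chr7:78782881-78783130, plus strand (*Mrps11*) and chr10:95501950-95502199, minus strand (*Mrpl42*). The NRF1 word begins 81 bases before the start of *Mrpl12* and 91 bases before that of *Mrps21*. *Mrpl53* has a pair of ETS words, from 59 and 16 bases before its start, and *Mrps22* has 1, from 11 bases before. In *Mrps11* the YY1 word begins 108 bases before the start. Another member lies close by. *Mrpl46* starts at chromosome 7 position 78783089 on the minus strand and *Mrps11* at 78783131 on the plus strand, with 41 bases between the starts, so most of the printed stretch lies within *Mrpl46*. *Mrpl42* has none of these words before its start but a YY1 word from transcribed base 28. The fold changes did not sort cleanly by these words. The median log2 fold change was -0.10 for the 13 genes with an NRF1 word and -0.17 for the 56 without, -0.19 for the 26 with an ETS word and -0.15 for the 43 without, and -0.23 for the 8 with a YY1 word and -0.15 for the 61 without. It was -0.11 for the 16 genes with ACGTG and -0.20 for the 53 without, -0.16 for the 38 with GCGTG and -0.16 for the 31 without, and -0.10 for the 5 with the E-box and -0.16 for the 64 without. A word in these windows is a match of letters and was not tied to binding here.

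The large subunit holds the peptidyl transferase centre, the exit tunnel and the stalk that recruits translation factors. *Mrpl42* (gene 67270, chr10:95480805-95501949), a protein found only in mitochondria, had 1272, 1285 and 1360.4 normalized reads in WT and 936, 956 and 946 in N275D libraries. This was the largest fall of all 78 genes, with a log2 fold change of -0.46 ± 0.05 (SE, adjusted p = 7.57e-07) and a wide gap between the genotypes. *Mrpl18* (gene 67681, chr17:12911345-12917787), a central protuberance protein with a bacterial counterpart, had 2239, 2316 and 2275 reads in WT and 1726, 1803 and 1698 in N275D libraries. Its log2 fold change was -0.39 ± 0.04 (SE, adjusted p = 1.44e-06), and the genotypes lay far apart. The exons of *Mrpl18* share 141 bases with *Tcp1* on the opposite strand, a chaperonin subunit gene whose log2 fold change was 0.02. *Mrpl49* (gene 18120, chr19:6053630-6057755), another mitochondria-specific protein, had 905, 920.0 and 869 reads in WT and 716, 674 and 675 in N275D libraries, a log2 fold change of -0.38 ± 0.05 (SE, adjusted p = 1.66e-05) without overlap. *Mrpl37* (gene 56280, chr4:107055874-107066866), also without a bacterial counterpart, fell from 1380.0 ± 29 to 1108 ± 18.5 reads (log2 fold change -0.32, standard error 0.04, adjusted p = 2.40e-05), and its libraries were among the tightest, at 1348 to 1406 in WT and 1087 to 1124 in N275D cells.

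**Figure D3:**
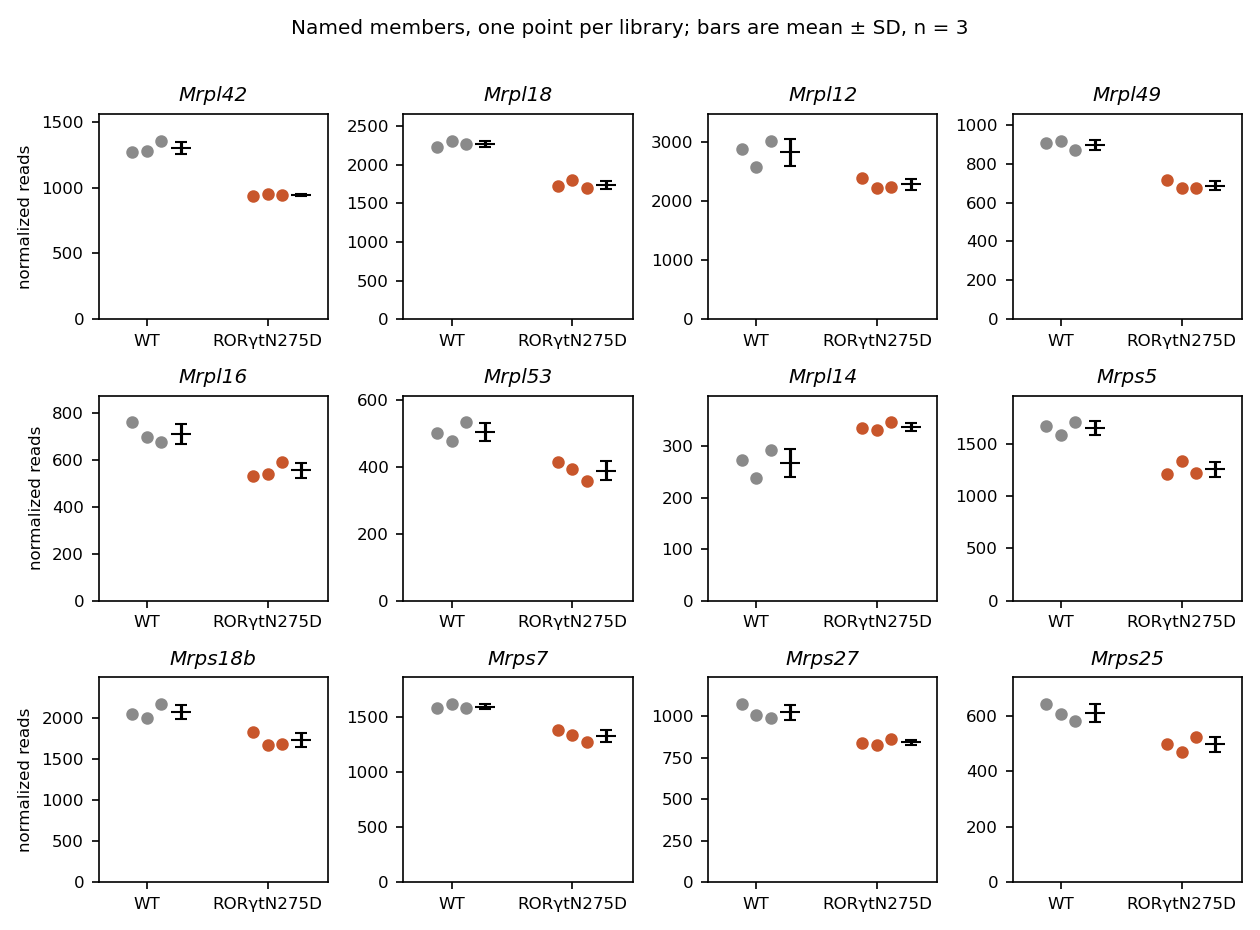
Normalized reads in each library for 12 named genes, WT grey and N275D orange, with mean ± SD (n = 3) beside the points and axes that start at 0. In 11 genes all 3 N275D points lie below the WT points, and in *Mrpl14* all 3 lie above.

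At the stalk and its base, where elongation factors dock, 4 of 5 genes fell, and the median of their log2 fold changes was -0.29. This group and the others by place below are small and were formed after the values were seen. For comparison, 52.6% of the 78 genes and 26.1% of all genes tested were called lower. *Mrpl12* (gene 56282, chr11:120484637-120488754) encodes the repeated stalk protein, which also binds the mitochondrial RNA polymerase. It had the most reads of all 78 genes, 2878, 2562 and 3015 in WT and 2379.9, 2220.1 and 2232 in N275D libraries. WT replicate 2 was the lowest WT library but still above each N275D library, and the log2 fold change was -0.30 ± 0.05 (SE, adjusted p = 0.000196). *Mrpl53* (gene 68499, chr6:83109108-83109932) had 501, 478 and 532 reads in WT and 414, 392 and 358 in N275D libraries (log2 fold change -0.38, standard error 0.07, adjusted p = 0.000309). All 695 bases of its exons are also annotated to the transcript *Gm42688* on the same strand, so its reads could be split or lost in counting, and its value is uncertain. *Mrpl11*, in the stalk base, and *Mrpl54* fell with log2 fold changes of -0.29 and -0.19. *Mrpl10*, which anchors the stalk, did not pass the test, at 1281 ± 106 reads in WT and 1187 ± 47.4 in N275D cells (adjusted p = 0.133).

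Around the peptidyl transferase centre, where peptide bonds form, 2 of 3 genes fell. *Mrpl16* (gene 94063, chr19:11770415-11774956), whose protein helps to place the incoming tRNA, had 759, 698 and 677 reads in WT and 532, 541 and 592 in N275D libraries, with no overlap. Its log2 fold change was -0.36 ± 0.06 (SE, adjusted p = 0.000183). *Mrpl3* fell with a log2 fold change of -0.20, and *Mrpl2* did not pass the test (-0.10, adjusted p = 0.104) although its genotypes did not overlap. Of the 6 genes for proteins that line or ring the exit tunnel, 1 fell, *Mrpl22* (-0.24), and the other values ran from -0.12 for *Mrpl47* to 0.06 for *Mrpl23*. *Mrpl45*, which ties the tunnel exit to the inner membrane, had 1584 ± 69.9 reads in WT and 1566 ± 74.3 in N275D cells. The tunnel genes thus had a median of -0.10 and the stalk genes one of -0.29, a difference that was not tested.

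In the central protuberance, which faces the small subunit and in mitochondria has a tRNA in place of bacterial ribosomal RNA, 6 of 8 genes fell, with a median of -0.17. Besides *Mrpl18* these were *Mrpl38* (-0.26), *Mrpl52* (-0.24), *Mrpl48* (-0.18), *Mrpl40* (-0.16) and *Mrpl58* (-0.15). *Mrpl58* (gene 68572, chr11:115403724-115412674) is a peptidyl hydrolase built into the ribosome, which can free stalled peptides. It had 668, 626 and 671 reads in WT and 590.0, 604 and 582 in N275D libraries, with an adjusted p of 0.0371. The call was lost, at adjusted p of 0.0596 to 0.111, when WT replicate 1 or 3 or any N275D library was left out. *Mrpl52* and *Mrpl48* were called although their genotypes overlapped, at adjusted p of 0.0324 and 0.0486. Of 16 refits, *Mrpl40* (adjusted p = 0.0419) was called in 5, *Mrpl48* and *Mrpl58* in 8 each and *Mrpl52* in 9. *Mrpl46* did not pass (adjusted p = 0.0635), at 594 ± 7.88 and 544 ± 10.4 reads. In GENCODE M21 its principal transcript shares no exon bases with another gene. The principal transcript of *Mrps11*, which fell, shares 173 bases with other annotated exons of *Mrpl46* on the opposite strand.

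*Mrpl9* (gene 78523, chr3:94443154-94448708), whose bacterial counterpart reaches out from the side of the large subunit, was among the genes with the most reads, at 2343, 2142 and 2255 in WT and 1949.7, 2013 and 1958 in N275D libraries. The log2 fold change was -0.19 ± 0.04 (SE, adjusted p = 0.00214), with no overlap. *Mrpl14* (gene 68463, chr17:45685722-45698495) ran the other way. Its protein lies on the face that joins the subunits and binds the assembly factor MALSU1. Reads numbered 273, 239 and 293 in WT and 335, 331 and 347 in N275D libraries, with each N275D library above each WT library (log2 fold change 0.34, standard error 0.08, adjusted p = 0.00232). It had the fewest WT reads of the 78 genes, and 106 bases of its exons overlap *Tmem63b* on the opposite strand, whose log2 fold change was -0.07. *Malsu1* itself had 315 ± 9.52 reads in WT and 318 ± 13.1 in N275D cells. Among genes above 0 without a call, *Mrpl33* (0.17, adjusted p = 0.109) and *Mrpl43* (0.17, adjusted p = 0.0658) lay highest. *Mrpl43* was called higher in 5 of 16 refits, *Mrpl33* in 2 and *Mrpl32* in 1, so that 2 large subunit genes rose without WT replicate 1 or N275D replicate 1 and 3 without WT replicate 3. *Mrpl43* shares 385 exon bases with *Twnk*, the mitochondrial DNA helicase, on the opposite strand, and *Twnk* fell from 875 ± 31.1 to 643 ± 17.8 reads (log2 fold change -0.44, adjusted p = 4.08e-06).

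**Figure D4:**
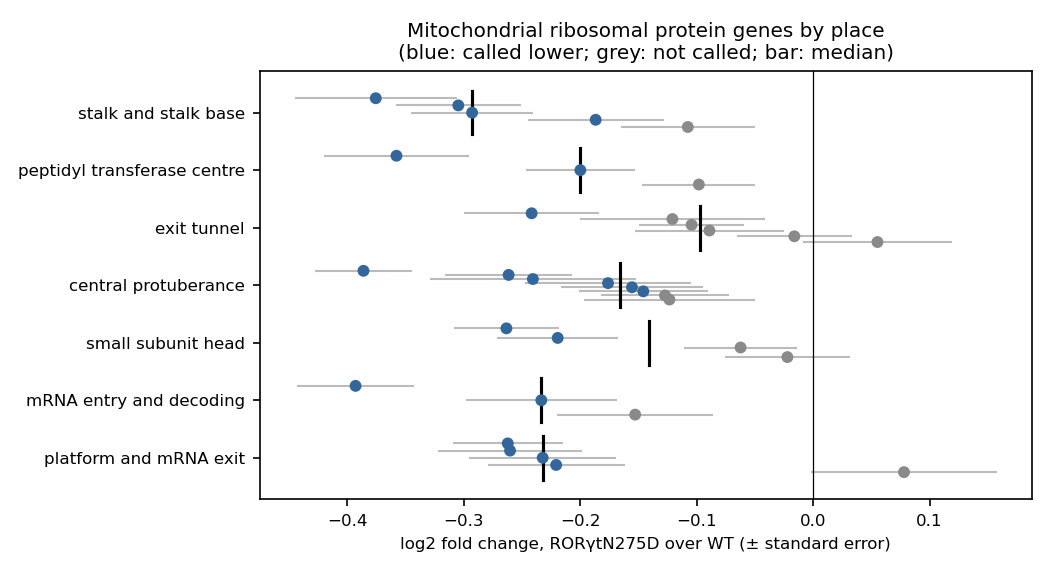
Log2 fold change (N275D over WT, ± standard error) of 34 genes grouped by where their proteins sit in the ribosome; blue genes fell, grey genes did not pass, and the black bar is the group median. The medians run from -0.29 at the stalk to -0.10 at the exit tunnel, in groups formed after the values were seen.

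The small subunit binds the mRNA and reads its codons. *Mrps5* (gene 77721, chr2:127587426-127603986), at the mRNA entry channel, had 1667, 1579.7 and 1705 reads in WT and 1211, 1338 and 1224 in N275D libraries. The genotypes were well apart, and its log2 fold change of -0.39 ± 0.05 (SE, adjusted p = 8.84e-06) was the largest fall of this subunit. *Mrps12* (gene 24030, chr7:28739641-28741821), the decoding centre protein whose bacterial counterpart sets accuracy and carries streptomycin resistance mutations, had 671, 698 and 801 reads in WT and 601, 631 and 608 in N275D libraries. It fell without overlap, with a log2 fold change of -0.23 ± 0.07 (SE, adjusted p = 0.00687). *Mrps24*, also at the entry channel, did not pass the test (-0.15, adjusted p = 0.0688).

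In the head of the small subunit *Mrps7* (gene 50529, chr11:115604140-115608036), near the exit site for tRNA, had 1587, 1622 and 1589 reads in WT and 1383, 1338 and 1278 in N275D libraries (log2 fold change -0.26, standard error 0.05, adjusted p = 0.000157). *Mrps9* also fell (-0.22), whereas *Mrps10* (-0.06, adjusted p = 0.299) and *Mrps14* (-0.02, adjusted p = 0.753) did not pass, so this region was split. On the platform, where mRNA leaves, 4 of 5 genes fell. *Mrps21* (gene 66292, chr3:95862634-95871514) had 522, 553 and 541 reads in WT and 440.2, 431 and 478 in N275D libraries (log2 fold change -0.26, standard error 0.06, adjusted p = 0.00237), and *Mrps11* (-0.22), *Mrps28* (-0.23) and *Mrps18b* (-0.26) fell beside it.

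Among small subunit proteins found only in mitochondria, *Mrps27* (gene 218506, chr13:99344767-99415562), a pentatricopeptide repeat protein that binds mitochondrial RNA, had 1072, 1009 and 985 reads in WT and 837, 829 and 859 in N275D libraries. It fell without overlap (log2 fold change -0.28, standard error 0.05, adjusted p = 0.000260). *Mrps25* (gene 64658, chr6:92169512-92184023) had 642, 607 and 581 reads in WT and 499, 471 and 524 in N275D libraries (log2 fold change -0.29, standard error 0.06, adjusted p = 0.00104). Of its 6073 exon bases, 4590 are shared with *Nr2c2* on the opposite strand, whose log2 fold change was 0.08, so its value depends on how strand was treated in counting. Overlaps of this kind were common: 28 of the 78 genes share exon bases with another gene, 23 of them with a gene on the opposite strand, and 16 of the 42 called genes are among the 28. The libraries are described as strand-specific, but the strand setting of the counting is not given in the sources used here.

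The MRPS18 proteins are 3 paralogues that descend from 1 bacterial protein and sit at different places, and their genes differed in these data. *Mrps18b* (gene 66973, chr17:35910380-35916440) had 2058, 2007 and 2174 reads in WT and 1832, 1679 and 1692 in N275D libraries, the highest of the small subunit genes in WT. It fell with a log2 fold change of -0.26 ± 0.05 (SE, adjusted p = 0.000252), and 638 of its exon bases are shared with the antisense transcript *Gm16279*. *Mrps18a* (gene 68565, chr17:46111004-46128908), which despite its symbol belongs to the large subunit, had 701, 754 and 802 reads in WT and 643, 662 and 600.4 in N275D libraries (log2 fold change -0.24, standard error 0.06, adjusted p = 0.00370). *Mrps18c* (gene 68735, chr5:100798759-100804467), the member placed like the bacterial protein, had 352, 399 and 384 reads in WT and 370.4, 450.4 and 381 in N275D libraries. Its genotypes overlapped, and its log2 fold change was 0.08 ± 0.08 (SE, adjusted p = 0.437). The difference between the paralogues was not tested. *Mrps30* (gene 59054, chr13:118380110-118387252), also a large subunit protein, had 1129, 1067 and 1119.8 reads in WT and 1066, 1037 and 1015 in N275D libraries (log2 fold change -0.09, standard error 0.05, adjusted p = 0.136), narrowly without overlap. *Mrps36* (gene 66128, chr13:100735940-100744659), now known as a component of the α-ketoglutarate dehydrogenase complex and not of the ribosome, had 363, 304 and 439 reads in WT and 329, 376 and 362 in N275D libraries. It had the widest standard error of the 78 genes, 0.10, and a log2 fold change of -0.04 (adjusted p = 0.792).

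Grouped by descent, 23 of the 46 genes with bacterial counterparts fell and 1 rose (median -0.16), and 17 of the 29 mitochondria-specific genes fell (median -0.18). The share that fell was 52.6% over all 78 genes and 26.1% over all genes tested. The subunits ran in opposite order. In the large subunit 13 of 30 bacterial-type genes fell (median -0.12) and 13 of 19 mitochondria-specific genes (median -0.19), whereas in the small subunit 10 of 16 bacterial-type genes fell (median -0.22) and 4 of 10 mitochondria-specific genes (median -0.12). These differences were not tested. The 36 genes without a call had log2 fold changes between -0.20 and 0.17, 29 of them below 0 and 7 above. *Mrpl55* had the largest fall among them, at 391 ± 42.8 reads in WT and 339 ± 28 in N275D cells (adjusted p = 0.0551), and *Mrpl4* the smallest difference, at 1109 ± 62.6 and 1106 ± 21.6.

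Although their proteins are present in equal number in each ribosome, apart from the repeated MRPL12, transcript levels differed widely between genes. As normalized reads per kilobase of the principal transcript (GENCODE M21), WT levels ranged from 100.4 for *Mrps25* to 2141 for *Mrpl12*, a 21.3-fold range around a median of 632. The longest principal transcript of each gene was used, at 6073 bases for *Mrps25*, so the low end depends in part on that choice. In normalized reads not divided by length, WT means ranged from 268 to 2818. The next highest levels per kilobase in WT were those of *Mrpl20* (2081), *Mrpl42* (1961), *Mrps18b* (1927) and *Mrpl18* (1868), named after their values were seen. All of these fell, to 1730.5 for *Mrpl12*, 1779 for *Mrpl20*, 1421 for *Mrpl42*, 1607 for *Mrps18b* and 1429 for *Mrpl18*, so that *Mrpl20* ranked above *Mrpl12* in N275D cells, a difference that was not tested. The median level per kilobase moved from 633 to 568 for large and from 630 to 546 for small subunit genes. Across the 78 genes the WT and N275D levels per kilobase kept nearly the same order, with a Spearman rho of 0.99. The log2 fold change had a Spearman rho of -0.30 with the WT level per kilobase and of 0.10 with transcript length. WT reads enter both the WT level and the fold change, so spread in WT alone pushes the first value below 0. These are descriptions across genes of the same libraries, which are not independent replicates.

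Other genes of mitochondrial translation were taken from lists of known roles. Of 5 ribosomal proteins with other symbols, *Chchd1* fell (-0.15, adjusted p = 0.0459), while *Dap3* (-0.11), *Ptcd3* (-0.10), *Aurkaip1* (-0.01) and *Gadd45gip1* (0.08) did not pass. Of 15 translation factors tested, 6 fell and 1 rose, with a median of -0.13, where 26.1% and 24.7% of all genes tested did so. *Tufm*, the elongation factor that delivers aminoacyl-tRNA, fell from 3860.5 ± 115 to 3124 ± 62.6 reads (log2 fold change -0.31, standard error 0.04, adjusted p = 7.43e-06). *Gfm1*, which moves the ribosome along the mRNA, fell from 2336 ± 104 to 1882 ± 49.7 (log2 fold change -0.31, adjusted p = 2.64e-05), whereas *Gfm2*, which acts in ribosome recycling, rose from 1075 ± 20.2 to 1177 ± 44.5 (log2 fold change 0.13, adjusted p = 0.0316). *Mrrf*, the recycling factor, fell as well (-0.26). So did *Lrpprc* (-0.25), which stabilizes mitochondrial mRNAs, *Oxa1l* (-0.20), which inserts nascent chains into the membrane, and *Taco1* (-0.19), a translational activator of a cytochrome oxidase subunit.

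Of 23 factors that assemble the ribosome or modify its RNA, 6 fell, none rose and 17 did not pass, with a median of -0.06. The share lower, 26.1%, was that of all genes tested. The ribosomal RNA methyltransferase *Mrm3* fell from 385 ± 12.6 to 269 ± 13.7 reads (log2 fold change -0.52, standard error 0.07, adjusted p = 1.53e-05), further than each ribosomal protein gene by its fold change. *Fastkd2* (-0.45), which acts on mitochondrial RNA, and the GTPase *Noa1* (-0.42) followed, and *Mtg2* (-0.25), *Eral1* (-0.19) and *Dhx30* (-0.11) fell less. Of 12 genes of mitochondrial transcription and replication, 3 fell, *Twnk* (-0.44), the RNA polymerase *Polrmt* (-0.41) and *Tfam* (-0.21), which packages mitochondrial DNA, and 2 rose, *Primpol* (0.41) and *Mterf2* (0.29). The share lower, 25%, was near that of all genes tested, and 7 of the 12 values were above 0, with a median of 0.03.

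Among 12 tested genes for transcription factors and coactivators of nuclear genes for mitochondrial proteins, 5 fell and 4 rose. The shares over all genes tested were 26.1% and 24.7%. *Nrf1* fell from 1539 ± 26.9 to 1233 ± 40.7 reads (log2 fold change -0.32, adjusted p = 2.31e-05). The coactivators of the PGC-1 family *Ppargc1b* (-0.49) and *Pprc1* (-0.31) fell, as did *Max* (-0.16) and *Yy1* (-0.12). *Gabpa* did not pass, at 1434 ± 61 and 1544 ± 41.6 reads (adjusted p = 0.0661). *Myc* rose from 6169 ± 111 to 6952 ± 124 (log2 fold change 0.17, adjusted p = 0.000585), *Mycn* from 37.7 ± 6.99 to 101 ± 7.31 (1.41), *Sp1* rose by 0.15 on the log2 scale, and *Hif1a*, which encodes the oxygen-regulated HIF-1α, rose from 5137 ± 317 to 8785 ± 55.9 (0.78, adjusted p = 4.00e-10).

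Set beside other gene groups of the same libraries, the mitochondrial ribosomal protein genes had a median opposite in sign to that of the cytosolic ribosomal protein genes. It was close to the median of a list of marks of mitochondrial content, whose members were mixed. Of all genes tested, 26.1% were lower and 24.7% higher. The respiratory chain and ATP synthase genes were nuclear ones, without the subunits encoded by mitochondrial DNA. Of these 81, 33 fell and 4 rose, and the median was -0.10. The cytosolic ribosomal protein genes went the other way, with 2 of 81 lower, 32 higher and a median of 0.07. Of 17 genes often used as marks of mitochondrial content, 11 fell and 2 rose, with a median of -0.15. The chaperonin genes *Hspe1* (-0.46) and *Hspd1* (-0.35), the prohibitin *Phb* (-0.41) and the protease *Clpp* (-0.40) fell furthest. *Lonp1*, another matrix protease (0.49), and *Vdac1* (0.10, adjusted p = 0.0303) rose. The 4 that did not pass were *Cs*, citrate synthase (-0.02, adjusted p = 0.608), *Tomm20* (-0.04), *Immt* (-0.09) and *Vdac3* (0.08). Of the 20 mitotic genes, 14 fell and 1 rose, with a median of -0.15. No test was run between these groups, which share their libraries with the mitochondrial ribosomal protein genes.

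**Figure D5:**
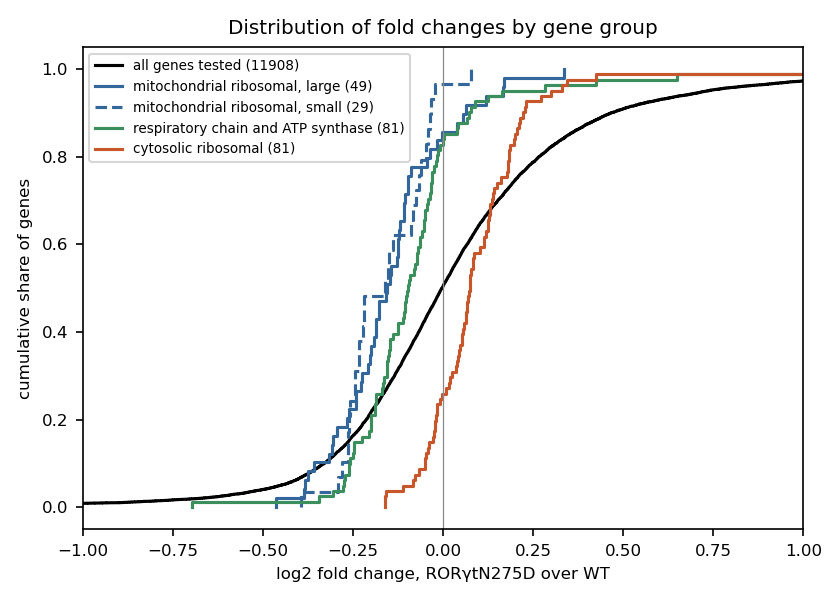
Cumulative share of genes by log2 fold change (N275D over WT) for all 11908 genes tested, the large and small subunit genes, respiratory chain and ATP synthase genes, and cytosolic ribosomal protein genes; the axis is cut at -1 and 1. At their medians the 2 mitochondrial ribosomal curves lie at -0.16 and -0.16, the respiratory chain curve at -0.10 and the cytosolic ribosomal curve at 0.07. The respiratory chain genes, all nuclear, run from -0.70 (*Cox6b2*) to 1.64 (*Cox6a2*), and the mitochondrial ribosomal genes from -0.46 to 0.34. The lower quartiles are -0.18 and -0.24.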

How the data were processed

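RNA-seq of 3 WT and 3 RORγtN275D Th17 libraries was analysed, grouped by the labels. According to the study's methods, the authors' pipeline ran from trimming through STAR (mm10) and featureCounts to DESeq2. Signal values as deposited are normalized reads per gene: within 1e-06, 100% of them are whole multiples of 1 factor per library. The deposited log2 fold changes and q-values are the authors' own comparison and were not used, nor were their deposited group averages.

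Genes with a mean of at least 10 were tested with limma (version 3.58.1, R 4.3.3; trended prior, 12.0 prior degrees of freedom) on log2(normalized reads + 1), without a block, and called at a Benjamini-Hochberg adjusted p under 0.05. The fit was run on simulated data with the same dispersion for every gene and library. That run checks the code and does not measure error rates in these data. Replicates differed by 1.32 to 1.54 times the counting noise in N275D. In WT the value was 1.38 for replicates 1 and 2, and 2.96 and 3.05 for the pairs with WT replicate 3. Each was treated as a library, although these values do not tell technical from biological replicates. The rule and gene lists were chosen with earlier results of these data known, and the groups by place in the ribosome after the values were seen. Named genes are the 6 largest changes in each direction within a subunit among called genes without overlap, the 2 with the most reads, and 8 chosen by role: *Mrpl12*, *Mrps12*, *Mrpl58*, *Mrps18a*, *Mrps18b*, *Mrps18c*, *Mrps30* and *Mrps36*. Further genes named beside a count were chosen after their values were seen. Coordinates are RefSeq GRCm38.p6 (mm10), exon overlaps and lengths GENCODE M21. Alternatives were other pseudocounts, filters, scalings and priors, library weights, a replicate block and each library left out. The result for 1 gene is not reported here.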

Additional observations from a re-analysis of the deposited data

How the results depend on the processing

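Of the 42 calls, 33 were made under each of the 16 refits, which were pseudocounts of 0.1 and 10, no filter or a mean of at least 100, quantile normalization, no trend, library weights, the replicate block, equal library sums, upper quartile scaling and each library left out. The other 9 were *Mrpl13*, *Mrpl21*, *Mrpl40*, *Mrpl48*, *Mrpl50*, *Mrpl52*, *Mrpl54*, *Mrpl58* and *Mrps15*. Equal sums and upper quartile scaling were added after seeing the data. Both subunit medians stayed below 0 in these refits. A 2-fold minimum left 102 genes lower and 325 higher, with 0 lower and 0 higher in the large and 0 lower in the small subunit. The small subunit median was -0.19 when subunits were set by position, -0.13 with equal sums (large subunit -0.12), -0.15 with upper quartile scaling and -0.20 to -0.15 with a library left out. The large subunit had 2 genes higher with library weights, 3 with the replicate block, 2 with equal sums and 1 to 3 with a library left out (2 without WT replicate 1 or N275D replicate 1, 3 without WT replicate 3). Equal sums left 37 and a library left out 34 to 40 of the 42 calls. *Mrps36* turned to 0.041 with library weights and ranged from -0.17 to 0.10 with a library left out (0.098 without WT replicate 3, 0.018 without N275D replicate 1), and *Mrps18c* ranged from 0.13 to -0.0089 (without N275D replicate 2), none of them called. *Mrpl58* was not called with the replicate block (adjusted p = 0.0713), equal sums (0.103) or upper quartile scaling (0.0586). The cause of these changes was not tested. Same-numbered libraries of the genotypes did not deviate together (correlations -0.0455, 0.0407 and -0.0828), so the numbers were not taken to pair them, and the block kept 40 of the 42 calls and added 2. TMM scaling, edgeR and DESeq2 were planned on whole reads but not run, since the values were handled as normalized signal. For the 36 genes without a call, a missed threshold does not show that the genotypes were equal.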
